A study of Mus musculus with 21 samples.

Results

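Potassium channels set the resting potential of a neuron, end its action potentials and limit how often it fires. The genes described here are those whose symbol starts with Kcn, together with Dpp6 and Dpp10, which code for partners of the Kv4 channels. They number 86 of the 18193 genes with a symbol on the array and are read by 171 of its 45101 probe sets. The brightest probe set stood for each gene. A filter kept the upper 60% of probe sets by mean level, and 57 of the 86 genes, among 12499 genes in all, passed it. The choice of genes used their names only and none of their values.

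Dentate gyrus RNA was taken from mice with a transgene for the Nogo receptor NgR, whose gene is Rtn4r, and was read on 21 arrays in 7 groups of 3. All mice carried the NgR transgene; bitransgenic mice also carried tTA, the transactivator that switches it on and that doxycycline blocks, while monotransgenic mice lacked tTA. In set 1 the groups were bitransgenic mice taken off doxycycline, bitransgenic mice with doxycycline in the diet throughout, and monotransgenic mice taken off doxycycline. In experiment 2 bitransgenic mice that had never met doxycycline were set against monotransgenic mice, both on water, and in set 3 bitransgenic against monotransgenic mice, with no treatment named. The labels give no promoter for tTA, strain, age or sex, and bitransgenic and monotransgenic mice differ in tTA as well as in NgR. Nothing says that the samples of a group came from separate animals, so p-values measure only the spread between samples, which may be technical. The series asks what excess NgR does to the developing and the mature forebrain.

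Most voltage-gated potassium channels are tetramers of pore subunits (Kv), to which auxiliary subunits add speed, trafficking and voltage sensitivity. Kv4 channels carry a fast, inactivating current in dendrites; their pore subunits, from Kcnd genes, assemble with KChIP proteins, from Kcnip genes, and with DPP6 or DPP10, which are relatives of dipeptidyl peptidases without enzyme activity. Other families are the Kv1 channels of axons with their beta subunits, the fast Kv3 channels, silent Kv subunits that work only together with other Kv subunits, KCNQ channels of the M-current, EAG and Erg channels, inward rectifiers, two-pore leak channels, and channels opened by calcium or sodium.

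The one member that passed the test in any comparison was Dpp10, on chromosome 1, and the sequence before its transcription start is shown as that of the gene on which the results turn. RefSeq's 250 bases upstream of its start in GRCm38.p6, at chr1:124045560-124045809 on the minus strand, read as follows, with CG pairs in capitals.
Dpp10: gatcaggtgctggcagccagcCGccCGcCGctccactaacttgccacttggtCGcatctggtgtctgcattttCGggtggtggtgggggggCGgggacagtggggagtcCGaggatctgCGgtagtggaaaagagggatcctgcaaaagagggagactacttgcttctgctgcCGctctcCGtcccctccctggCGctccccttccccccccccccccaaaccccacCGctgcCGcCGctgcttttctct
This stretch holds 14 CG pairs (CG reads the same on both strands) and is 65.2% G or C. Of all 32851 such windows, 29.4% held at least 14 CG pairs, against 33.3% of the 93 windows found for 66 of the members. The median was 8 CG pairs in the members' windows and 6 over all windows. These are descriptions of the windows, and the arrays do not show which start was used.

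Rtn4r checked the labels. Its deposited intensity was 254 to 1469 in the 9 arrays with the transgene meant to be on, 73.1 to 111 on the doxycycline diet and 63.8 to 185 in the 9 monotransgenic arrays. Correlations between arrays ran from 0.921 to 0.988. The arrays of experiment 2 varied more: the median SD within a group, on the log2 scale, was 0.32 and 0.35 for the members there against 0.20 to 0.22 in the other groups. The ratio of 3′ to 5′ beta-actin signal, a sign of RNA quality, reached 6.24 (log2) in experiment 2 and at most 5.04 elsewhere. Xist, made in females, lay between 2361 and 4750 in experiment 2 but between 9.59 and 33.7 elsewhere, so comparisons were kept within sets.

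Among the monotransgenic arrays of set 3, array 2 stood apart. Over the 12499 genes, its deviation from the mean of its set correlated with those of its group mates at -0.40 and -0.43, while theirs correlated with each other at 0.32 (genes are not independent replicates). It correlated at 0.16 with bitransgenic array 1, the only positive value between the groups of set 3, and these arrays share the title prefix 1217. In experiment 2 monotransgenic array 1 correlated with arrays 2 and 3 at -0.41 and -0.34, and they with each other at 0.20. Bitransgenic array 2 of experiment 2, that of highest actin ratio, correlated with its group mates at -0.49 and -0.21, and they with each other at 0.099. Deviations from a set mean cancel out over its arrays, so their correlations lean negative in any case. Pairs across the groups ran from -0.54 to 0.19 in experiment 2 and from -0.51 to 0.16 in set 3. Rtn4r was at most 185 in all 9 monotransgenic arrays. For some members that moved with 1 of these 3 arrays, differences are given with and without it. For others another array was left out, such as monotransgenic array 3 of experiment 2 for Kcng1 and Kcnk2. The array was then chosen from the gene's own values.

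Markers of dentate granule cells, with 10 of 10 listed genes past the filter, were high in every array, with summed intensities of 13996 to 22380. The 4 CA1 markers summed to 305 to 511. The 6 of 7 markers of CA3, CA2 and mossy cells past the filter summed to 9399 to 14973, mostly through Nptx1 and Pcp4. Those of thalamus, neocortex and striatum (8 of 10) summed to 1218 to 2300. These sums do not measure how pure the dissection was. In set 1 the granule cell sum was 14503 to 17776 after doxycycline removal, 15539 to 17332 on the diet and 18675 to 21864 in the monotransgenic group. The 4 of 6 meningeal and fibroblast markers past the filter summed to 57.5 to 94.1, 81.7 to 108.8 and 702 to 862 in the same groups, mostly through Ogn. Lum was also lower in both bitransgenic groups. Dcn overlapped, at 9.61, 20.9 and 19.2 after removal against 30, 18.1 and 16.9 in monotransgenic mice. So did Col1a2, at 10.7, 21.9 and 26.5 against 23.5, 3.31 and 13.7. Choroid plexus markers (4 of 6) summed to 55.2 to 159 over all arrays, and none of the 4 blood markers passed the filter. In whole tissue, fewer cells of a type and less RNA per cell cannot be told apart.

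Dpp10, the Kv4 partner that speeds the channel's opening and inactivation, was lower with the transgene on. Its intensity in set 1 was 62.9, 42.2 and 63.1 after doxycycline removal, 92.1, 75.3 and 92.9 on the diet, with monotransgenic mice at 151, 128 and 117. No array of one group overlapped another, and the diet group lay between the other two. The mean was 56.1 ± 12.0 (SD, n = 3) after removal and 132 ± 17.2 in monotransgenic mice. The difference was -1.01 ± 0.19 (SE) on the log2(value + 16) scale, a 2.01-fold lower level, and passed in limma (adjusted p = 0.0468, rank 8 of 12499 genes by p). The exact permutation test of this difference gave its smallest possible two-sided p of 0.1 over 20 labelings. Without any 1 of the 6 arrays the adjusted p was 0.0566 to 0.39, with differences of -1.10 to -0.84.

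In the other comparisons Dpp10 was lower without passing. After removal against the diet it differed by -0.48 ± 0.19 (adjusted p = 0.833 in limma), and on the diet against monotransgenic mice by -0.53 ± 0.19 (adjusted p = 0.916), so that bitransgenic mice with the transgene off were also below those without tTA. In experiment 2 its intensity was 74.5, 47.5 and 53.7 in bitransgenic and 99.7, 71.4 and 92.2 in monotransgenic arrays. These groups overlapped, by 1 bitransgenic array above the lowest monotransgenic one, and the difference was -0.33 ± 0.19 (adjusted p = 0.419), or -0.18 without monotransgenic array 1. In set 3 its intensity was 87.6, 87.1 and 61.2 against 110, 92.7 and 96.9, without overlap, and the difference was -0.27 ± 0.19 (adjusted p = 1.00 in limma), or -0.13 without bitransgenic array 3.

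Over the 3 sets with the transgene on, Dpp10 differed from monotransgenic mice by -0.53 ± 0.11 (adjusted p = 0.0622 in limma, 9 arrays against 9). The exact permutation test within sets gave p = 0.00175 over 8000 labelings, for a gene singled out by its own result in set 1. Without 1 array in turn the value was -0.59 to -0.48, and it passed in 3 of 18 such fits, with adjusted p from 0.0127 to 0.174. Those were the fits without set 3 monotransgenic array 2 and without experiment 2 monotransgenic array 1 or array 2. The difference in set 1 exceeded that in experiment 2 by 0.68 ± 0.27 (adjusted p = 0.579) and that in set 3 by 0.74 ± 0.27 (adjusted p = 1.00), neither of which passed.

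The second Dpp10 probe set was dimmer and did not show the fall of set 1. Its intensity in set 1 was 23.4, 17.0 and 30.3 after removal, 26.6, 17.9 and 32.1 on the diet, with monotransgenic mice at 15.1, 34.1 and 39.6, all overlapping. Its difference was -0.13 after removal against monotransgenic mice, 0.19 in experiment 2 and -0.26 in set 3. The set 3 value was close to that of the brighter probe set, but its arrays overlapped. They were at 55.25, 37.83 and 2.924 in bitransgenic and 42.72, 35.41 and 26.85 in monotransgenic mice, so only bitransgenic array 3 was low. The call in set 1 thus rests on 1 of 2 probe sets. It went with the lower granule cell sum and the lower Ogn of set 1, whose part in it was not tested.

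**Figure D1:**
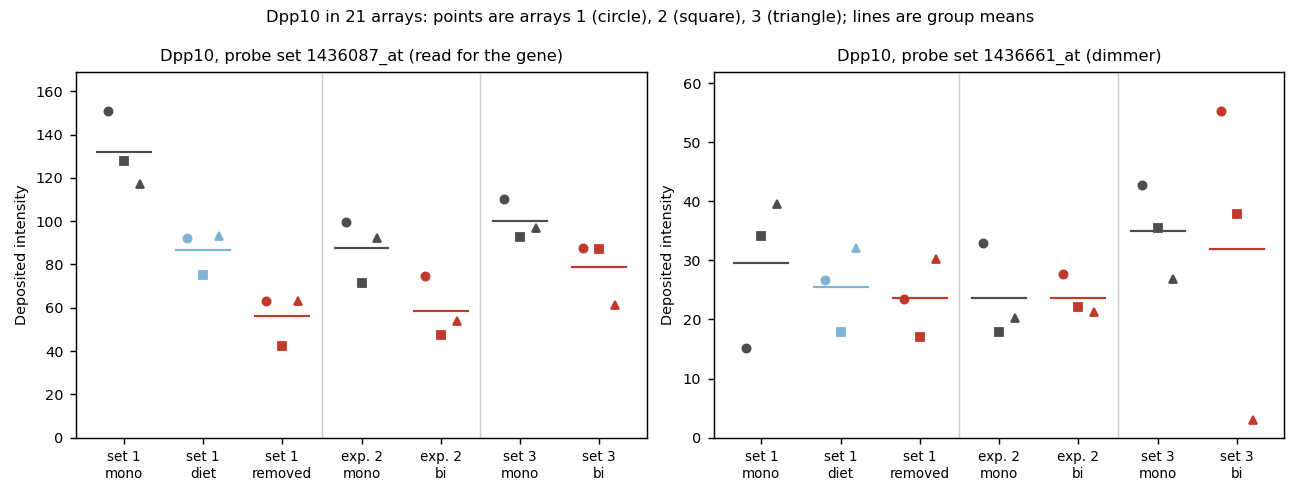
Deposited intensity (vertical axis, from 0) of the Dpp10 probe sets in the 7 groups, with 1 point per array and a line at each group mean; grey marks monotransgenic, blue the doxycycline diet and red the transgene on. At the brighter probe set the set 1 groups do not overlap (42.2 to 63.1, 75.3 to 92.9 and 117 to 151), while the dimmer one shows overlapping groups.

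The other genes of the Kv4 complex gave no call. All 9 genes of the complex passed the filter. After removal against monotransgenic mice 8 of 9 were lower, with a median of -0.20 against -0.01 over all genes, and 1 passed. In the other sets the direction was mixed: 3 were higher and 6 lower in experiment 2 (median -0.17), and 5 higher and 4 lower in set 3 (median 0.05).

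Kcnd2 and Kcnd3, the main pore subunits of Kv4 channels in brain, lay close together across set 1. Kcnd2 was at 1989, 2138 and 1707 after removal, 1902, 2134 and 1999 on the diet, with monotransgenic mice at 1814, 1838 and 2046, a difference of 0.00 ± 0.33 after removal against monotransgenic mice. Kcnd3 was at 1767, 1541 and 1153, at 1344, 1445 and 1600, and at 1570, 1617 and 1751 in those groups. Its difference was -0.20 ± 0.14. In experiment 2 one array, bitransgenic array 2, held Kcnd2 at 652 and Kcnd3 at 2214, against 2437 and 2755 for Kcnd2 and 1356 and 1545 for Kcnd3 in its group mates. That array had the highest actin ratio, 6.24. Without it the difference in experiment 2 went from -0.54 ± 0.33 to 0.10 ± 0.18 for Kcnd2 and from 0.23 ± 0.14 to 0.06 ± 0.13 for Kcnd3. Kcnd1 on the X chromosome, the third pore gene, was at 46.6, 40.9 and 44.8 in bitransgenic and 35.1, 42.4 and 25.4 in monotransgenic arrays there, a difference of 0.50 ± 0.16 (adjusted p = 0.194 in limma). Its deposited values overlapped by 1 array, and after normalization the groups did not overlap.

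The KChIP genes, which code for calcium-binding proteins on the inner face of Kv4 channels, spread widely. Kcnip4 was at 858, 1100 and 836 after removal and 1232, 1535 and 951 in monotransgenic mice (-0.41 ± 0.34). In set 3 it was at 534, 575 and 617 in bitransgenic and 969, 320 and 1158 in monotransgenic arrays. The low value of 320 is that of monotransgenic array 2; with it the difference was -0.32 ± 0.34, and without it -0.90 ± 0.24 (adjusted p = 0.125 in limma). Kcnip3 differed by -0.42 ± 0.23 after removal against monotransgenic mice, Kcnip2 by -0.31 ± 0.37 and Kcnip1 by -0.10 ± 0.25. Dpp6, the sister gene of Dpp10, was at 418, 397 and 463 after removal and 516, 418 and 557 in monotransgenic mice (-0.20 ± 0.28), and at 710, 609 and 749 in bitransgenic against 537, 618 and 421 in monotransgenic arrays of set 3 (0.40 ± 0.28). Both comparisons of Dpp6 overlapped. Its dimmer probe set gave -0.60 after removal against monotransgenic mice and -0.22 in set 3, where its sign was opposite.

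**Figure D2:**
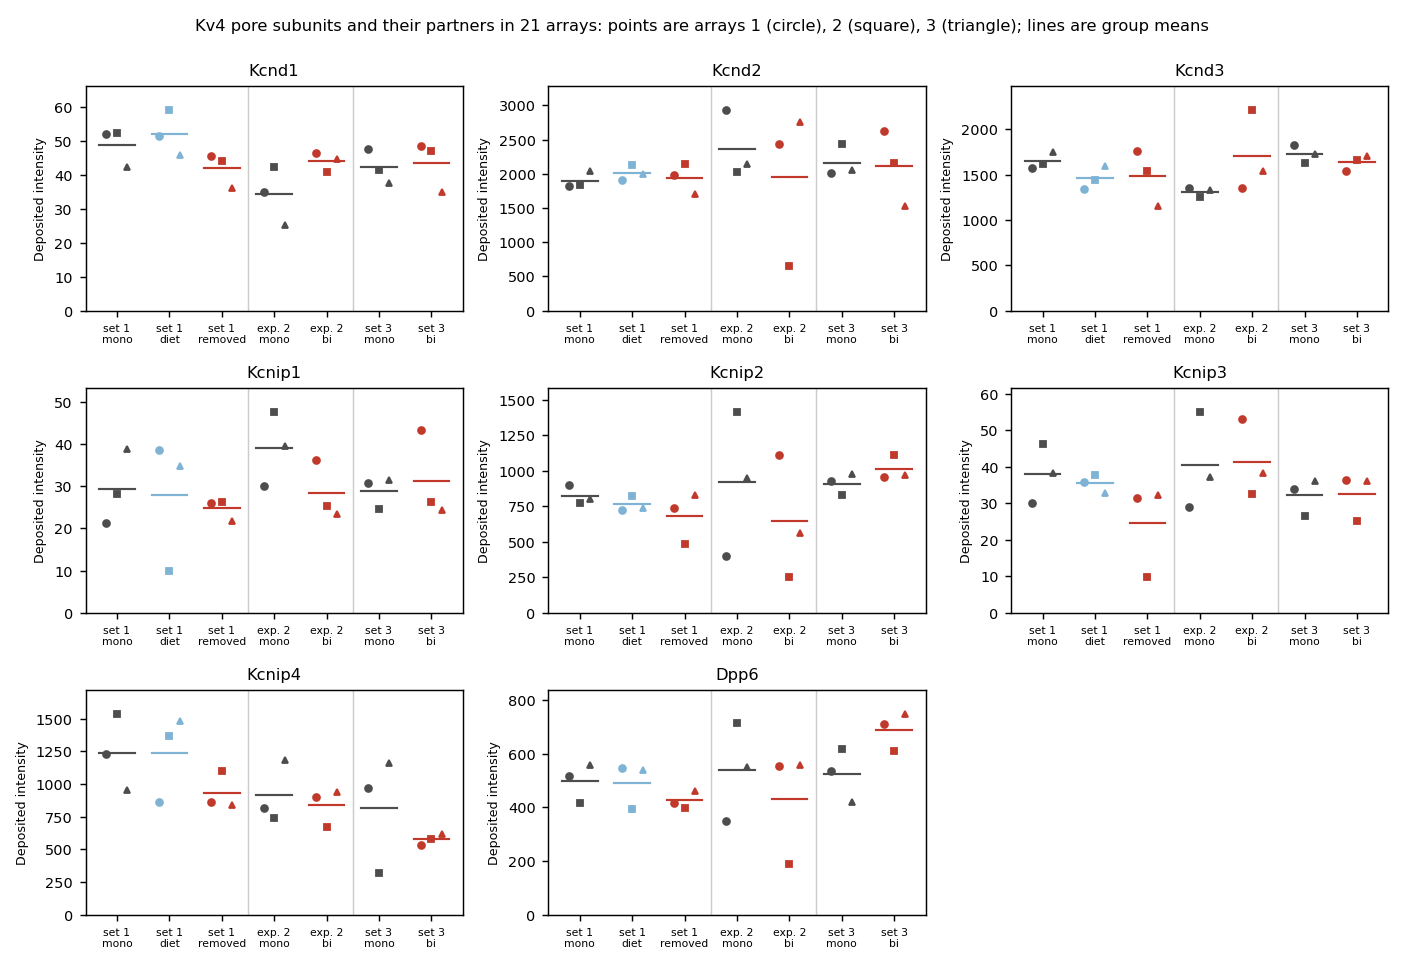
Deposited intensity (vertical axes, each from 0) of 8 genes of the Kv4 complex other than Dpp10 in the 7 groups, with 1 point per array and a line at each group mean. The groups overlap in most panels, and single arrays stand far from their group mates in experiment 2, such as 652 for Kcnd2.

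Across all families 1 member passed the test in 1 comparison. Called by adjusted p were 0 of 57 after removal against the diet (0.032% of all genes), 1 of 57 after removal against monotransgenic mice (0.072%), and 0 of 57 on the diet against monotransgenic mice (0.024%). In experiment 2 the count was 0 (0.096% of all genes), in set 3 it was 0 (0%) and over the mean of 3 sets 0 (0.072%). At an unadjusted p under 0.05, in limma, the members numbered 4, 10, 4, 9, 3 and 9 in these comparisons, or 7.02%, 17.5%, 7.02%, 15.8%, 5.26% and 15.8% of the 57. All genes gave 5.04%, 7.86%, 3.85%, 14.4%, 4.19% and 11.8%. The median difference of the members was between -0.07 and 0.04 in every comparison, and that of all genes between -0.01 and 0.03.

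Groups that did not overlap were also counted. After removal against the diet 4 members were higher and 7 lower without overlap, or 7.02% and 12.3% of 57, beside 7.99% and 8.25% of all genes. After removal against monotransgenic mice 9 were higher and 8 lower (10.8% and 11.4% of all genes), and on the diet against monotransgenic mice 3 and 2 (7.3% and 7.58%). In experiment 2 the counts were 3 and 0 (5.12% and 3.57%), and in set 3 they were 4 and 1 (8.78% and 4.72%). No member was without overlap in the same direction in all 3 sets (0.088% and 0.048% of all genes). As shares of the 57 members, the counts after removal against monotransgenic mice were 15.8% and 14%, those on the diet against monotransgenic mice 5.26% and 3.51%, those of experiment 2 5.26% and 0%, and those of set 3 7.02% and 1.75%. Members exceeded the share of all genes in both directions only after removal against monotransgenic mice, by a few genes of 57, and this was not tested.

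**Figure D3:**
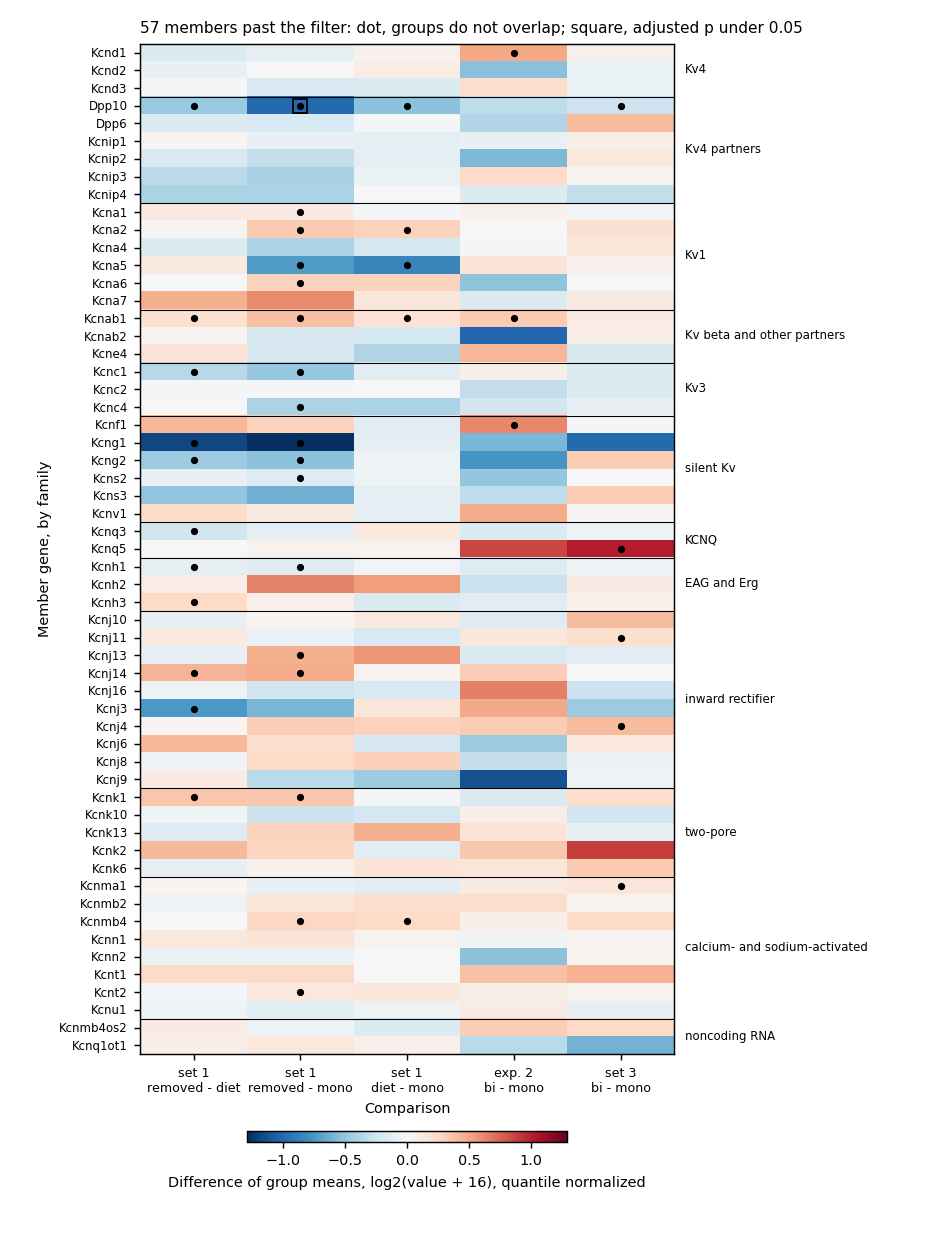
Differences of group means on the log2(value + 16) scale for the 57 members past the filter (rows, by family) in the 5 comparisons within sets (columns), red for higher and blue for lower. Dots mark groups without overlap, and the single square marks Dpp10 after removal against monotransgenic mice (-1.01); Kcng1 (-1.29) is the lowest value in that column.

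Among Kv1 channels and their beta subunits, Kcnab1 was higher with the transgene on in each set. It codes for a beta subunit that gives Kv1 channels fast inactivation. Its intensity in set 1 was 1869, 1717 and 1795 after removal, 1384, 1610 and 1528 on the diet, with monotransgenic mice at 1239, 1379 and 1373. The groups did not overlap, and the diet group lay in between. The difference after removal against monotransgenic mice was 0.39 ± 0.14 (adjusted p = 0.378 in limma). In experiment 2 it was at 1495, 2091 and 2012 against 1468, 1259 and 1337, a difference of 0.34 ± 0.14 (adjusted p = 0.267), and in set 3 at 1546, 1319 and 1015 against 1182, 1257 and 1107, where the groups overlapped (0.11 ± 0.14). Over the 3 sets the difference was 0.28 ± 0.08 (adjusted p = 0.126). Its dimmer probe set gave 0.21, 0.23 and 0.21 in the 3 sets. At that probe set the diet group did not lie in between. It differed by 0.26 from monotransgenic mice, and the removed group by -0.05 from the diet.

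Kcnab2, which codes for a second beta subunit, did not follow it. In experiment 2 it was at 444, 116 and 300 in bitransgenic and 291, 848 and 626 in monotransgenic arrays (-1.02 ± 0.34), with the array of highest actin ratio the lowest. Without that array the difference was -0.57 ± 0.31. In set 1 after removal it was at 647, 405 and 488 against 589, 576 and 584. The Kv1 pore genes had no common direction, with 4 of the 6 past the filter higher and 2 lower after removal against monotransgenic mice. Kcna1 and Kcna2, pore subunits of axons and their terminals, were higher there without overlap. Kcna2 was at 631, 646 and 675 after removal, 645, 567 and 686 on the diet, with monotransgenic mice at 468, 491 and 576, 0.34 ± 0.15 for the first against the last. Kcna1 differed by 0.10 ± 0.08, from 3728 to 4043 against 3343 to 3813, deposited ranges that overlap and separated only after normalization.

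Kcna5, a Kv1 gene best known from heart and smooth muscle, was lower in both bitransgenic groups of set 1. It was at 18.8, 20.4 and 19.4 after removal. The diet group was at 28.0, 7.72 and 21.5, and monotransgenic mice were at 48.9, 44.2 and 38.4, above both. The differences were -0.73 ± 0.26 (adjusted p = 0.388 in limma) and -0.85 ± 0.26 (adjusted p = 0.768). In experiment 2 (0.18 ± 0.26) and set 3 (0.05 ± 0.26) the groups overlapped. Kcna6 differed by 0.29 ± 0.34 after removal against monotransgenic mice at the probe set read and by -0.29 at its dimmer one. Kcna4, a Kv1 subunit that inactivates by itself, was at 516, 841 and 803 against 1119, 749 and 952 (-0.40 ± 0.20).

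The 3 Kv3 genes, which code for channels of fast-firing neurons, were all lower after removal against monotransgenic mice, with a median of -0.41. Kcnc1 was at 764, 938 and 871 after removal, 1217, 1001 and 1045 on the diet, with monotransgenic mice at 1377, 1007 and 1216. The removed group lay under both others (-0.36 ± 0.19 and -0.49 ± 0.19, adjusted p = 0.999 and 0.466 in limma). Of the other 3 Kcnc1 probe sets past the filter 2 were lower too (-0.50 and -0.30) and 1 was not (0.06). Kcnc4 was at 495, 569 and 510 against 621, 741 and 741 (-0.41 ± 0.22), and Kcnc2 at 120, 162 and 123 against 109, 133 and 190 (-0.02 ± 0.25). The summed markers of inhibitory neurons, where Kcnc1 and Kcnc2 are best known, were 4393 to 4784 after removal, 3932 to 4439 on the diet and 4337 to 5008 in monotransgenic mice. These sums came mostly through Gad1. Of the 8 listed genes 3 were higher and 5 lower after removal against monotransgenic mice. Slc32a1 was among the lower, at 205, 174 and 170 against 208, 244 and 275. The part of these genes in the Kcnc1 values was not tested.

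Kcng1, a silent subunit, was lower with the transgene on in set 1. Removal of doxycycline gave 33.4, 56.6 and 28.7. The diet gave 147, 93.7 and 96.2, and monotransgenic mice 103, 133 and 132, so that the diet and monotransgenic groups lay together and above the removed group. The differences were -1.17 ± 0.61 against the diet and -1.29 ± 0.61 against monotransgenic mice (adjusted p = 0.999 and 0.622 in limma); fitted on the arrays of set 1 alone, both passed. In set 3 it was at 2.90, 31.7 and 25.2 in bitransgenic and 118, 0.887 and 141 in monotransgenic arrays. The single low array is again monotransgenic array 2. The difference was -1.0 ± 0.61 with it and -2.01 ± 0.47 without it (adjusted p = 1.00 and 0.0585).

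In experiment 2 Kcng1 was at 29.9, 7.74 and 15.1 in bitransgenic and 21, 18.2 and 115 in monotransgenic arrays, where only monotransgenic array 3 was high. Without that array the difference went from -0.59 ± 0.61 to 0.07 ± 0.61. Over the 3 sets Kcng1 differed by -0.96 ± 0.35 (adjusted p = 0.259) with all arrays, by -1.30 ± 0.25 (adjusted p = 0.00627) without set 3 monotransgenic array 2, and by -0.74 ± 0.33 (adjusted p = 0.460) without experiment 2 monotransgenic array 3. The array of set 3 left out held the lowest monotransgenic value there. Without it 2.53% of all genes passed over the 3 sets, against 0.072% with all arrays. The second Kcng1 probe set was under the filter.

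Kcng1 was not alone in this pattern of arrays. Kcnq5, a subunit of the M-current that holds back repeated firing, was at 109, 92.3 and 116 in bitransgenic and 123, 50.3 and 29.3 in monotransgenic arrays of experiment 2. In set 3 it was at 156, 99.2 and 102 in bitransgenic arrays, against 34.7, 100 and 28.9. Monotransgenic array 1 of experiment 2 and array 2 of set 3 were thus at the bitransgenic level. The differences were 0.86 ± 0.38 and 1.02 ± 0.38 (adjusted p = 0.304 and 1.00 in limma), and 1.39 ± 0.34 (adjusted p = 0.0266) and 1.42 ± 0.38 (adjusted p = 0.116) without those 2 arrays in turn. Each array left out held the highest monotransgenic value of its set, so leaving it out raises the difference. Without monotransgenic array 1, 5.17% of all genes passed in experiment 2, against 0.096% with all arrays. In set 1 Kcnq5 was at 22.1, 41.5 and 76.4 after removal and 43.7, 34.2 and 48.9 in monotransgenic mice, overlapping (0.05 ± 0.38). Its second probe set gave 0.38 in experiment 2 and 0.35 in set 3.

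Kcnk2, which codes for the TREK-1 leak channel, was at 1053, 956 and 770 in bitransgenic and 305, 896 and 446 in monotransgenic arrays of set 3. In experiment 2 it was at 712, 843 and 1021 against 914, 787 and 360. Its difference in set 3 was 0.89 ± 0.32 with all arrays and 1.33 ± 0.29 without monotransgenic array 2 (adjusted p = 1.00 and 0.0408 in limma). That array held the highest Kcnk2 value of its group. Without it 0.584% of all genes passed in set 3, against 0% with all arrays. In experiment 2 the difference was 0.35 ± 0.32 with all arrays and -0.07 ± 0.30 without monotransgenic array 3. Kcnt1, a sodium-activated channel, was at 44.1, 39.5 and 42.4 against 16.1, 47.9 and 21.3 in set 3 and at 34.6, 31.6 and 50.6 against 47.3, 39.5 and 15.6 in experiment 2. Its difference in set 3 went from 0.45 ± 0.25 to 0.70 ± 0.26 without array 2. In set 1, Kcnk2 after removal was at 442, 557 and 731 against 460, 470 and 462 in monotransgenic mice (0.28 ± 0.32).

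The meningeal marker Ogn was low in array 2 of the set 3 monotransgenic group too, and in experiment 2 it set monotransgenic array 3 above arrays 1 and 2, as Kcng1 did. It was at 824, 41.2 and 652 in the monotransgenic arrays of set 3, at 153, 79.6 and 525 in those of experiment 2, and at 24.1, 143 and 44.9 and 54.5, 27.9 and 71.9 in the bitransgenic arrays of these sets. C1ql2, of the granule cell list, was at 886, 135 and 1132 and at 136, 442 and 1234 in the monotransgenic arrays of these sets. Trpc6 of that list was likewise low in array 2 of set 3 (359, 82.3 and 389). Tdo2 of that list went the other way, at 440, 1422 and 391 and at 1308, 893 and 471. Prox1 varied less in set 3, at 907, 771 and 951, so the list had no common direction in these arrays. In set 1 Ogn was at 8.54 to 26.8 on the diet, where Kcng1 was as high as in monotransgenic mice. The part of these markers in the values of Kcng1, Kcnq5, Kcnk2, Kcnt1 and Kcnip4 was not tested.

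**Figure D4:**
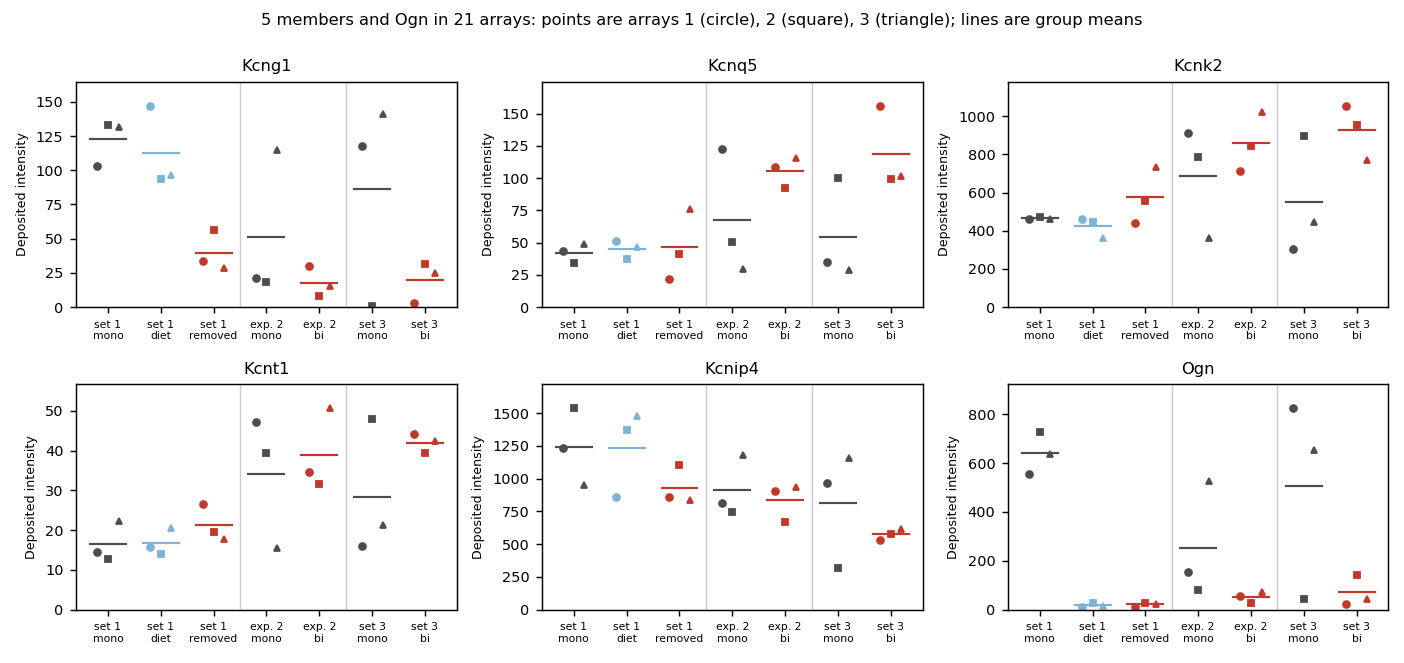
Deposited intensity (vertical axes, each from 0) of 5 members and the meningeal marker Ogn in the 7 groups, with 1 point per array and a line at each group mean. Array 2 (square) of the set 3 monotransgenic group lies with the bitransgenic arrays in the Kcng1, Kcnq5, Kcnk2, Kcnt1 and Ogn panels (0.887, 100, 896, 47.9 and 41.2).

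Of the other silent subunits, Kcng2 was lower without overlap after removal against both other groups of set 1, at 47.2, 32.5 and 45.6 against 78.2, 69.0 and 53.2 on the diet, with monotransgenic mice at 76.8, 74.8 and 57.8 (-0.47 ± 0.37 and -0.53 ± 0.37). Kcns2 was lower without overlap against monotransgenic mice (-0.17 ± 0.21). Kcnf1 was higher in experiment 2, at 263, 522 and 232 against 203, 234 and 180 (0.62 ± 0.28, adjusted p = 0.322 in limma); the deposited ranges overlap by 1 array and separated after normalization. The value of 522 is that of bitransgenic array 2; without it the difference was 0.27 ± 0.26, and with the mean of both Kcnf1 probe sets it was 0.036. Kcnq3, the KCNQ partner of the M-current, was at 1663, 1561 and 1620 after removal against 1955, 1812 and 1770 on the diet (-0.24 ± 0.19). Against monotransgenic mice, at 2141, 1542 and 1523, it overlapped (-0.11 ± 0.19). Kcnh1, of the EAG family, was lower without overlap against both groups by small amounts (-0.12 ± 0.17 and -0.15 ± 0.17).

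Inward rectifiers, which let potassium in more readily than out, gave 10 genes past the filter of 15, of which 6 were higher and 4 lower after removal against monotransgenic mice. Kcnj3, Kcnj6 and Kcnj9 code for GIRK channels opened by G proteins. Kcnj3 was at 2586, 1257 and 2580 after removal against 3369, 3154 and 3340 on the diet, the groups not overlapping (-0.75 ± 0.32, adjusted p = 0.893 in limma). Without removed array 2, at 1257, the difference was -0.41, and with the mean of the 4 probe sets it was -0.23; the 3 dimmer ones gave 0.08, -0.01 and -0.26. Against 2492, 3041 and 3420 in monotransgenic mice it overlapped (-0.59 ± 0.32), and the dimmer probe sets gave -0.45 to 0.25. In experiment 2 Kcnj3 was at 2647, 5907 and 3584 against 3093, 2086 and 2674 (0.49 ± 0.32), the high value being that of the array of highest actin ratio; without it the difference was 0.20 ± 0.33. Kcnj9 ran from 88.9 to 1085 in experiment 2, with bitransgenic arrays at 91.2, 397 and 88.9 and monotransgenic arrays at 139, 1085 and 276 (-1.12 ± 0.64), or -1.79 ± 0.64 without bitransgenic array 2. Kcnj6 was at 54.2, 60.1 and 39.3 after removal and 38.9, 37.8 and 55.5 in monotransgenic mice (0.21 ± 0.27).

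Kcnj14 was higher after removal than in both other groups of set 1, at 23.1, 25.3 and 16.8 against 15.8, 8.52 and 14.9 on the diet, with monotransgenic mice at 15.5, 6.52 and 14.4 (0.43 ± 0.21 and 0.48 ± 0.21). Kcnj4 and Kcnj11, the latter the pore of ATP-sensitive channels, were higher without overlap in set 3 (0.41 ± 0.26 and 0.20 ± 0.16). Kcnj4 was at 36.7, 35.6 and 32.9 in bitransgenic and 23.6, 23.8 and 20 in monotransgenic arrays. Members known from other cell types did not pass the test. Kcnj10 of glia was at 289, 206 and 169 after removal against 172, 210 and 275 (0.03 ± 0.30). Kcnj13 of the choroid plexus was at 22.8, 35.3 and 26.6 after removal, 42.4, 22.9 and 37.0 on the diet, with monotransgenic mice at 16.0, 22.7 and 13.2 (0.46 ± 0.26 for the first against the last). Kcnj8 of pericytes was at 27.7, 18.6 and 18.1 against 5.20, 25.6 and 20.6 (0.26 ± 0.26).

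Among two-pore channels Kcnk1 (TWIK-1) was higher after removal, at 4419, 3929 and 4211 against 2868, 2902 and 3497 on the diet, with monotransgenic mice at 3257, 2978 and 3204. The removed group lay above both others, by 0.36 ± 0.16 and 0.34 ± 0.16 (adjusted p = 0.943 and 0.632 in limma). In set 3 Kcnk1 differed by 0.23 ± 0.16 and in experiment 2 by -0.19 ± 0.16, with overlap in both. Its dimmer probe set gave 0.52, 0.16, 0.27 and 0.31 in those comparisons, set 1 first, then set 3 and experiment 2.

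**Figure D5:**
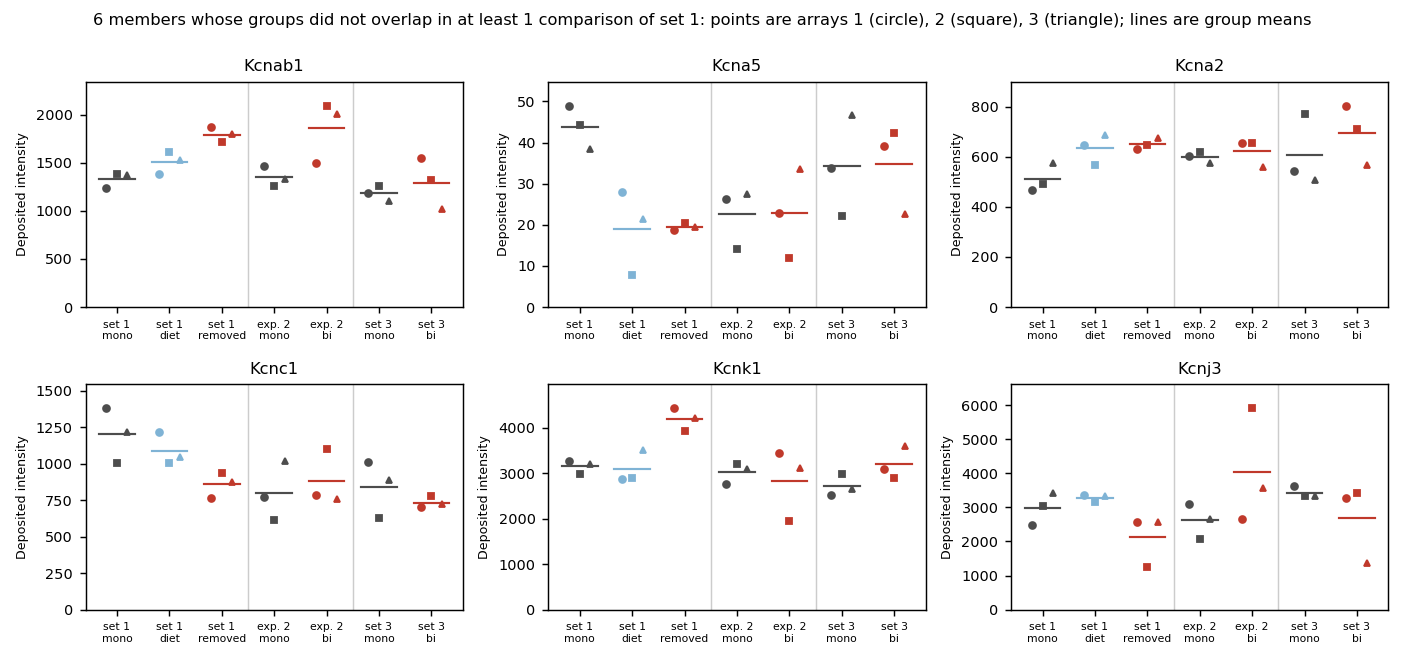
Deposited intensity (vertical axes, each from 0) of Kcnab1, Kcna5, Kcna2, Kcnc1, Kcnk1 and Kcnj3 in the 7 groups, with 1 point per array and a line at each group mean. In set 1 the removed group is above both others for Kcnab1 and Kcnk1 and below both for Kcnc1, and both bitransgenic groups are below the monotransgenic one for Kcna5.

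No calcium- or sodium-activated channel passed the test. Kcnma1, the pore of the BK channel, was at 489, 525 and 484 after removal and 539, 455 and 627 in monotransgenic mice (-0.11 ± 0.17). In set 3 it was at 507, 469 and 474 against 407, 446 and 452, without overlap, but the mean of its probe sets turned that difference from 0.15 ± 0.17 to -0.05. Kcnmb4, the BK beta subunit of neurons, was higher in both bitransgenic groups of set 1, at 617, 430 and 515 and at 504, 515 and 520 against 413, 424 and 438 (0.27 ± 0.19 and 0.26 ± 0.19). One array of the removed group lay under the highest monotransgenic one as deposited and above all 3 after normalization. Kcnt2, related to Kcnt1, was at 942, 967 and 955 after removal against 866, 816 and 890 (0.14 ± 0.19). Kcnn2, an SK channel that shapes the pause after a spike, was at 86.4, 89.2 and 117 against 112, 110 and 100 (-0.09 ± 0.23).

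The 29 members under the filter included Kcne2 of the choroid plexus, at 0.293 to 15.2 over the 21 arrays, and Kcnh7 of the Erg family, at 2.17 to 30.9. They also included 7 of the 12 two-pore genes and 5 of the 15 inward rectifiers. Low readings do not show that a gene was silent, since no detection calls were used.

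Of 37 listed genes that work with these channels, 26 passed the filter. None passed the test in any of the 6 comparisons; at an unadjusted p under 0.05 in limma they numbered 1, 3, 1, 3, 0 and 3 in the order used above. After removal against monotransgenic mice 9 were higher and 17 lower (median -0.04). The 4 of 6 listed peptidase genes past the filter (Dpp3, Dpp7, Dpp8 and Dpp9) differed by -0.18 to 0.27 there. Abcc8, a subunit of ATP-sensitive channels, differed by -0.94 ± 0.28 in experiment 2 (adjusted p = 0.176), and Amigo1, a membrane protein that partners Kv channels, by 0.57 ± 0.19 (adjusted p = 0.201).

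Probe sets of one gene often differed in direction. Of 32 members with at least 2 probe sets past the filter, the 2 brightest had the same sign in 27 after removal against monotransgenic mice and in 22 in set 3. They had the same sign in 17 after removal against the diet, 18 on the diet against monotransgenic mice and 16 in experiment 2.

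No member's difference passed the test between sets (0% of all genes for experiment 2 less set 1, for set 3 less set 1 and for set 3 less experiment 2). At an unadjusted p under 0.05 in limma the members numbered 9, 4 and 4, or 15.8%, 7.02% and 7.02% of 57, beside 7.91%, 3.5% and 8.09% of all genes. For Kcna5 the difference in experiment 2 less that in set 1 was 0.91 ± 0.37 (adjusted p = 0.585 in limma), and in set 3 less set 1 it was 0.79 ± 0.37 (adjusted p = 1.00).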

How the data were processed

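The 21 arrays give a linear intensity per probe set, deposited by the authors with a mean of 150 on every array after the lowest and highest 2% were left out; the software: not given in the sources used here. Genes were named by matching probe sets to current symbols. Values were taken as log2(value + 16) and quantile normalized, since array medians spanned 0.30 (limit 0.25). Probe sets in the upper 60% by mean (27022) were kept; a gene's brightest one stood for it. Levels are printed as deposited and differences from normalized values. One limma fit (3.58.1, R 4.3.3) had a coefficient per group over 21 arrays and 14 residual degrees of freedom, with Benjamini-Hochberg adjustment over 12499 genes, a threshold of 0.05 and two-sided tests; errors on differences are standard errors. The number of arrays limits the precision.

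Named were members past the threshold, up to 6 per comparison and direction without overlap, and a fixed list of channel genes. Kcns2, Kcnt2, Abcc8, Amigo1, Ogn, C1ql2 and the other cell type markers named singly were chosen after their values were seen. The arrays that stood apart or were left out for single genes were chosen in the same way. The members and lists were chosen with earlier results of these data known. The fit was tested on simulated data. Alternatives were other pseudocounts, filters, scalings, probe set rules, weights, covariates, sets and arrays left out. Figures used matplotlib.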

Additional observations from a re-analysis of the deposited data

How the results depend on the processing

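Replicate numbers follow accession order and pair nothing. In set 3 the title prefixes 1217 and 1215 each recur in both groups. Deviations from the group means correlated at 0.21 and 0.005 in these 2 pairs, and at -0.19 to 0.15 in pairs of unlike prefix. Only 2 pairs cannot show whether the prefix pairs the samples, and the main fit did not pair them. With the prefix as a replicate block in the fit of 21 arrays, added after seeing the data, 0 members were called in set 3 and 0 over the 3 sets, and Dpp10 differed by -0.28 and -0.54 (adjusted p = 1.00 and 0.197 in limma). Of 689 alternative values for 37 single-gene results, 664 kept their direction and side of the threshold, 13 passed only under the alternative, 11 lost the call, and 1 reversed: Kcnma1 in set 3 was -0.054 when its probe sets were averaged. Only 1 of the 37 results was called in the main fit, so for the others keeping their side meant staying without a call. All 11 lost calls were of that result. It was Dpp10 after removal against monotransgenic mice, which passed in 7 of 12 other settings (-1.19 to -0.57) and in 0 of 6 fits without 1 array. Members called there went from 1 to 0 with a pseudocount of 1, no filter, averaged probe sets, no variance trend or a Gapdh covariate, to 3 (Dpp10, Kcnab1, Kcng1; 5.26% of members and 2.64% of all genes) with set 1 alone, and to 0 without any 1 array. Removed against the diet gave 1 (Kcng1; 0.68% of all genes) with set 1 alone. Array weights gave 4 members in experiment 2, 1 in set 3 and 10 over the 3 sets, or 7.02%, 1.75% and 17.5% of members beside 7.12%, 0.312% and 11% of all genes. Leaving out the 2 arrays of highest actin ratio, chosen after seeing the data, gave 4 in experiment 2 (Kcnab2, Kcnj9, Kcnj16 and Kcnq5) and 3 over the 3 sets (7.02% and 5.26% of members beside 4.14% and 3.32% of all genes). Over the 3 sets the deposited scale, 75th percentile centring and a threshold of 0.1 gave 1 each (Dpp10; 0.432%, 0.496% and 1.02% of all genes), and leaving out experiment 2 gave 2 (1.5%). Without 1 array the counts were 0 to 3 in experiment 2 (3 without monotransgenic array 1, beside 5.17% of all genes), 0 to 1 in set 3 (1 without monotransgenic array 2, beside 0.584%), and 0 to 4 over the 3 sets (4 without set 3 monotransgenic array 2, beside 2.53%). The causes were not tested. Dim probe sets limit members whose intensities fell under 20 on some arrays. Among them were Kcng1, Kcna5, Kcnj14, Kcnt1, Kcnj4, Kcnj13 and Kcnj8, and also the dimmer Dpp10 probe set.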
